A study of Mus musculus with 28 samples.

Results

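H3K27ac, acetylation of lysine 27 on histone H3, was compared between 2 kinds of mouse lung tumour in 4 of the 28 samples of the series. Tumours of 1 kind carried floxed Mll4 alleles, which Cre is meant to delete, and the genotype of the other kind names no floxed Mll4. The 4 libraries were the samples whose titles name H3K27ac, and they were split by a tag in the names of the deposited files, MLL for replicates 1 and 2 and RAS for replicates 3 and 4. The labels of single samples do not state the tumour type. Libraries of different marks were matched by replicate number. Where several marks are compared below, a replicate number is called a tumour, although the labels do not state that such libraries share a tumour. The tags were read, from the 2 genotypes in the series' title, as K-RasLSL-G12D;Mll4fl/fl for MLL and K-RasLSL-G12D for RAS, so every comparison here rests on the file names. All tumours arose after Ad-CMV-Cre, an adenovirus that delivers Cre recombinase under a promoter active in many cell types, so the RAS tumours share with the MLL tumours the mutant K-Ras allele and the virus. Sex, age, time after infection, and whether a library came from 1 animal or from a pool, were not given in the sources used here. The material was whole tumour tissue that was fixed, sheared and precipitated with 1 antibody against H3K27ac, so fewer cells with the mark and less of the mark per cell cannot be told apart.

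MLL4 is a histone methyltransferase that places a single methyl group on lysine 4 of histone H3 (H3K4me1), mainly at enhancers, where it works beside the acetyltransferases that write H3K27ac. H3K27ac marks active enhancers and active promoters, and promoters also carry H3K4me3. H3K79me2 lies along transcribed gene bodies, H3K27me3 is the mark of Polycomb repression, and H3K9me3 is found in heterochromatin. Genes were not placed, because the gene table at hand is of the GRCm38 assembly and the peak positions are of mm9, per the submitters' processing notes. Regions are therefore given by mm9 position, and the deletion of Mll4 and the cell types in the tissue were not checked through genes.

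Each deposited file lists the called peaks of 1 library with the authors' score. The lowest score in any list was 50, and scores served here for filtering and for classes by rank within a list. Read counts were not part of the lists, so depth was unknown. The lists of both tags differed in their smallest peak, which was 68 and 55 bp in MLL replicates 1 and 2 and 377 and 305 bp in RAS replicates 3 and 4. The median score was 71.3 and 71.2 in the MLL lists against 231 and 193 in the RAS lists. For H3K27ac both the smallest width and the score thus moved with the tag. In other marks, lists of the same tag differed in this way too. For H3K4me3 the smallest and median widths were 90 and 263 bp in MLL replicate 1 and 348 and 2033 bp in MLL replicate 2. For H3K27me3 they were 323 and 1487 bp in RAS replicate 3 and 82 and 455 bp in RAS replicate 4. The part of the smallest width in the results was not tested, and values among peaks with a score of at least 100 are given beside the main ones.

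The MLL lists held more and much narrower H3K27ac peaks than the RAS lists, and they covered far less of the genome. MLL replicates 1 and 2 had 61536 and 80030 peaks, and RAS replicates 3 and 4 had 40049 and 43235. The MLL counts were 1.69-fold those of RAS (log2 difference 0.75), and the groups did not overlap. Among peaks with a score of at least 100, the order was the other way (log2 difference -0.57).

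The median width was 233 and 216 bp in the MLL lists and 2051 and 1702 bp in the RAS lists, an 8.33-fold difference (log2 difference -3.06, and -2.49 at a score of at least 100). The middle part of the width distribution, from the 25th to the 75th percentile, ran from 173 to 364 bp in MLL replicate 1 and from 1280 to 3287 bp in RAS replicate 3, so the bulk of both lists did not overlap. Peaks under 500 bp made up 85.8% and 90.9% of the MLL lists and 0.0275% and 0.116% of the RAS lists. The smallest width of the lists also moved with the tag, and its part in these values was not tested.

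The bases in peaks came to 20.0 and 22.1 Mb in MLL and to 116 and 113 Mb in RAS, which was 5.44-fold more in RAS (log2 difference -2.44, and -3.28 at a score of at least 100). MLL peaks often lay close together, so gaps of up to 1 kb were closed within each library. The joined regions then spanned 29.2 and 38.1 Mb in MLL and 118 and 117 Mb in RAS. The RAS span was 3.54-fold larger (log2 difference -1.82), and closing the gaps thus narrowed the difference without removing it. With gaps of up to 3 kb closed, the spans were 42.7 and 60.7 Mb against 128.5 and 127.9 Mb. Without MLL replicate 2 the log2 difference was -2.01. It was -2.97 at a score of at least 100 and -2.41 when each list was limited to its 40049 best-scored peaks, so the size of the difference depended on the score.

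The number of joined regions differed less than the span, at 29334 and 27654 in MLL and 31710 and 31028 in RAS (log2 difference -0.14). Among other settings it was -1.11 at a score of at least 100, -0.69 with the 40049 best-scored peaks and -0.55 with gaps of up to 3 kb closed. A joined MLL region was put together from 2.10 and 2.89 peaks on average, and a RAS region from 1.26 and 1.39. Regions of 10 kb or more numbered 107 and 483 in MLL and 1954 and 2134 in RAS.

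For each of these 5 measures both MLL libraries lay on the same side of both RAS libraries. With 6 possible divisions of the 4 libraries into pairs, an exact permutation test (two-sided) gave p = 0.333 each time (0.333 after Benjamini-Hochberg adjustment over 5 measures), the smallest that 2 libraries against 2 can give, so no measure could pass 0.05. The labels do not say that the libraries came from separate animals, so these p-values cannot be read as a statement about animals. The spread between these samples may be technical. The gap between the tags exceeded the gap between replicates: for the joined span the log2 difference of -1.82 stood against gaps of 0.38 within MLL and 0.01 within RAS.

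**Figure D1:**
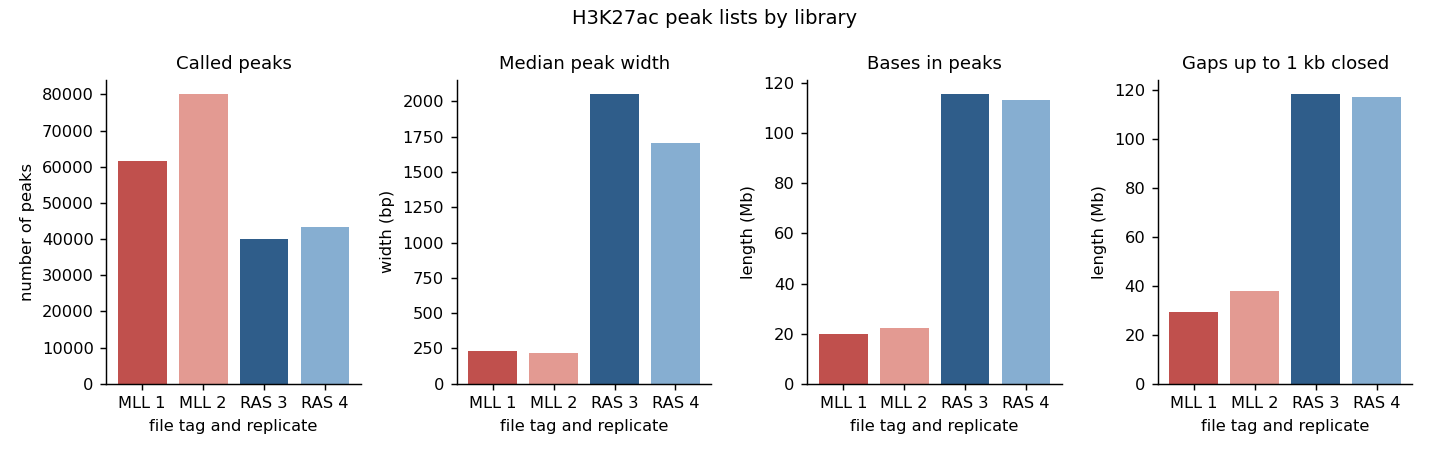
Bars give, for each H3K27ac library, the number of called peaks, the median peak width in bp, the bases in peaks in Mb and the span in Mb after gaps of up to 1 kb were closed. The red MLL bars are higher for peak number and lower for the other measures, with joined spans of 29.2 and 38.1 Mb against 118 and 117 Mb.

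The same contrast was computed for the other 5 marks to see how the H3K27ac values compare. The joined span of H3K4me1 was also smaller in both MLL libraries, at a log2 difference of -1.20. That of H3K27me3 was too, at 13.8 and 31.4 Mb against 107 and 40.0 Mb (-1.66), with log2 gaps of 1.19 within MLL and 1.43 within RAS. H3K4me3 gave -1.42 with overlapping groups and a gap of 3.04 within MLL. H3K79me2 (0.16) and H3K9me3 (0.40) had slightly larger mean values in MLL, with overlapping groups. The median width of H3K27ac peaks had the most negative log2 difference of the 6 marks (-3.06, next H3K27me3 with -1.14), while H3K79me2 peaks were wider in MLL (0.99). For H3K4me3 the log2 gap in median width was 2.95 within MLL and 2.08 within RAS.

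The lists were then compared by place. Pooling the peaks of the 4 libraries and closing gaps of up to 1 kb gave 48470 regions that spanned 169 Mb. A peak was present in both RAS libraries in 22796 of them, called RAS-shared here.

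Of the RAS-shared regions, 7400 (32.5%) also held a peak in both MLL libraries and 6927 (30.4%) in neither. These RAS-only regions were 14.3% of all regions, and those with a peak in all 4 libraries were 15.3%. The opposite pattern, a peak in both MLL libraries and in neither RAS library, was found in 288 regions, 0.594% of all regions and 3.62% of the 7957 regions that the MLL libraries shared. The 30.4% depended on what counts as a peak and on which regions were taken. It was 51.9% with peaks of a score of at least 100, 85.2% when 50% of a region had to be covered, and 50.7% in regions without H3K79me2. The 3.62% was 0.335% at that score, 1.24% with the 40049 best-scored peaks of each list, 13.1% at 50% coverage and 1.20% without H3K79me2. It was 1.85% with gaps of up to 3 kb joined and 2.34% with peaks extended by 500 bp.

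The replicates of MLL were unlike each other. MLL replicate 1 held a peak in 14881 RAS-shared regions (65.3%) and MLL replicate 2 in 8388 (36.8%). The share of RAS-shared regions without an MLL peak was therefore 34.9% when MLL replicate 2 was left out and 63.3% when MLL replicate 1 was left out, with regions built anew from the remaining libraries. Without MLL replicate 2, the regions with a peak in both RAS libraries but not in MLL replicate 1 were 8171, or 21.1% of 38760. The regions with a peak in MLL replicate 1 and in neither RAS library were 3238, or 8.35%.

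For the opposite pattern, the share of MLL regions without a RAS peak rested on which libraries were used. It was 15.9% when MLL replicate 2 was left out, 54.6% without MLL replicate 1, 6.65% without RAS replicate 3 and 5.09% without RAS replicate 4.

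Between replicates of RAS, 21.2% of the joined regions of replicate 3 were untouched by replicate 4, and 20.1% the other way round. For these same 2 libraries, 47.0% and 48.8% of the regions were untouched by MLL replicate 1, and 71.9% and 72.1% by MLL replicate 2. In this direction the differences between tags were larger than the difference between the RAS replicates. In the other direction, 19.0% and 22.9% of the regions of MLL replicate 1 were untouched by RAS replicates 3 and 4, about as many as between the RAS replicates. For MLL replicate 2 these shares were 54.3% and 55.6%. The MLL replicates, however, touched only 26.6% and 27.8% of each other's regions, less than either shared with RAS.

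MLL replicate 1 lay almost wholly inside the RAS peaks. Of its bases, 92.4% were in peaks of RAS replicate 3 and 89.5% in peaks of RAS replicate 4. In the other direction its peaks covered 16.0% and 15.8% of the RAS bases. Over the 88.1 Mb covered in both RAS libraries, MLL replicate 1 covered 19.9% and MLL replicate 2 covered 9.63%, and these were 29.0% and 14.8% after closing gaps.

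MLL replicate 2 differed from the other 3 libraries in where its peaks lay. H3K79me2 peaks of the same replicate number were touched by 82.7% of its peaks, against 43.0% in MLL replicate 1 and 40.0% and 36.4% in RAS. The high share in MLL replicate 2 was known when the libraries were chosen, so it is a description. Of its bases, 44.2% and 42.9% lay in peaks of RAS replicates 3 and 4. The most frequent pattern was a peak in MLL replicate 2 alone, with 10978 regions of a median 216 bp, of which 84.2% touched H3K79me2 of that replicate.

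The score separated the MLL replicates further. In MLL replicate 1, the share of peaks that touched a peak of either RAS library was 82.3% in the lowest of 4 equal score classes and 99.3% in the highest. In MLL replicate 2 the shares were 38.6% and 49.9%. Its share on H3K79me2 was 80.1% in the lowest and 85.5% in the highest class, so its best-scored peaks were on H3K79me2 no less often than the weak ones. Results are given for each MLL library for this reason.

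**Figure D2:**
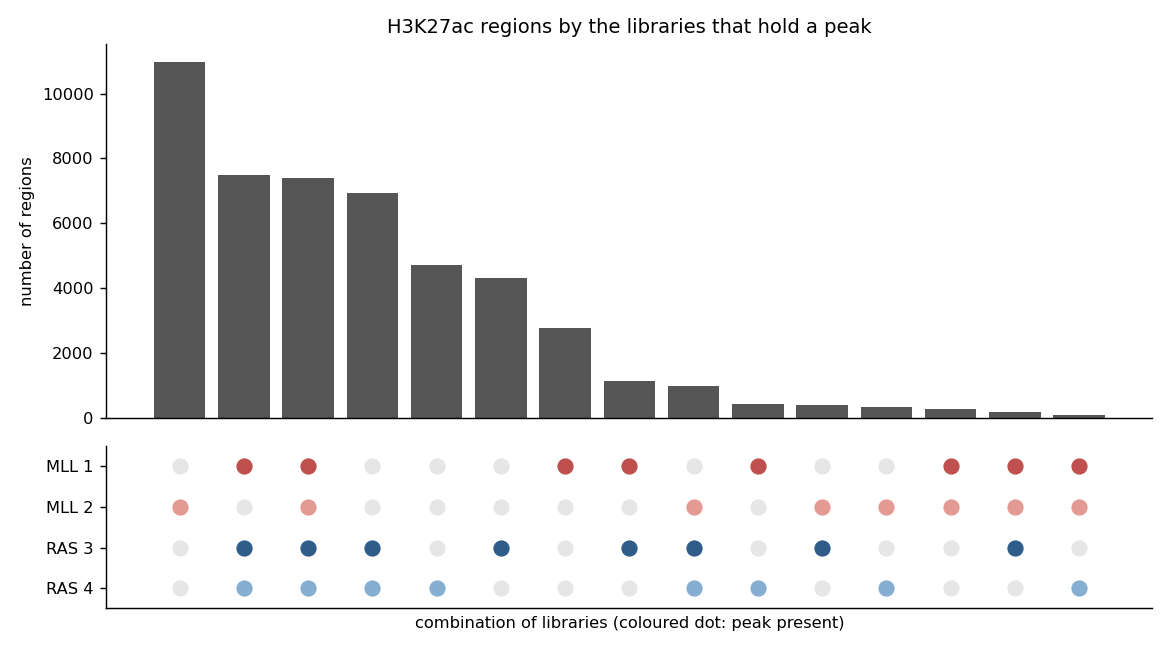
Bars count H3K27ac regions for each combination of libraries with a peak, and coloured dots under a bar show which libraries hold one. The first bar is MLL replicate 2 alone (10978 regions), followed by MLL replicate 1 with both RAS libraries (7481), all 4 libraries (7400) and both RAS libraries alone (6927).

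Larger RAS-shared regions held an MLL peak more often. The size was taken as the mean number of bases in the peaks of both RAS libraries. Of the 651 regions under 1 kb, 22.9% held a peak of MLL replicate 1, and of the 6162 regions of 1 to 2 kb, 45.8%. The share was 66.9% for 10312 regions of 2 to 5 kb, 83.6% for 3554 of 5 to 10 kb and 95.2% for 1561 of 10 to 20 kb. For MLL replicate 2 the shares in the same order were 12.6%, 20.4%, 35.3%, 49.4% and 72.6%. A peak counted as present at 1 shared bp, so a larger region can meet a peak more easily. The part of this in the rise with size was not tested.

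The longest RAS regions nearly all held MLL peaks, but these filled little of them. The 556 RAS-shared regions with 20 kb or more of RAS peak bases held a peak of MLL replicate 1 in 555 cases and of MLL replicate 2 in 514. Their median covered share was 89.2% and 91.3% in RAS replicates 3 and 4. It was 17.8% in MLL replicate 1 and 13.6% in MLL replicate 2. The regions were chosen by their RAS peak bases, which favours high RAS shares, so this gap is only a description. In the median, 18 and 13 separate MLL peaks lay where the RAS libraries had 4 and 5.

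The authors' score in RAS showed the same order. In the lowest of 4 equal classes by the best score in RAS replicate 3, 30.8% of the regions held a peak of MLL replicate 1 and 61.6% held none of either MLL library. In the highest class the shares were 94.6% and 4.51%. By the score in RAS replicate 4 the regions without an MLL peak were 53.8% in the lowest and 8.26% in the highest class. The share of regions without an MLL peak was thus higher among the short and low-scored ones, although 2988 of the 6927 RAS-only regions were of 2 to 5 kb.

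In regions with a peak in all 4 libraries the MLL peaks took up a small part. The median bases in peaks were 1082 bp in MLL replicate 1 and 795 bp in MLL replicate 2, against 4458 and 4090 bp in RAS. In the 7400 regions, MLL replicate 1 covered more bases than both RAS libraries in 1 region and MLL replicate 2 in 436.

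The place of the MLL peaks inside RAS intervals differed between the MLL libraries. The 11517 intervals of 2 to 5 kb that were covered in both RAS libraries were divided into 10 equal parts. MLL replicate 1 covered 4.91% and 5.03% of the bases in the outermost parts and 29.9% and 29.5% in the central pair, so its peaks were concentrated in the middle. MLL replicate 2 covered 5.78% and 5.64% at the edges and 10.3% and 10.0% in the centre, a flatter course. The H3K4me1 peaks of the RAS libraries covered 20.3% to 35.4% of each part and those of the MLL libraries 7.42% to 15.0%, so H3K4me1 was lower in MLL in every part.

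**Figure D3:**
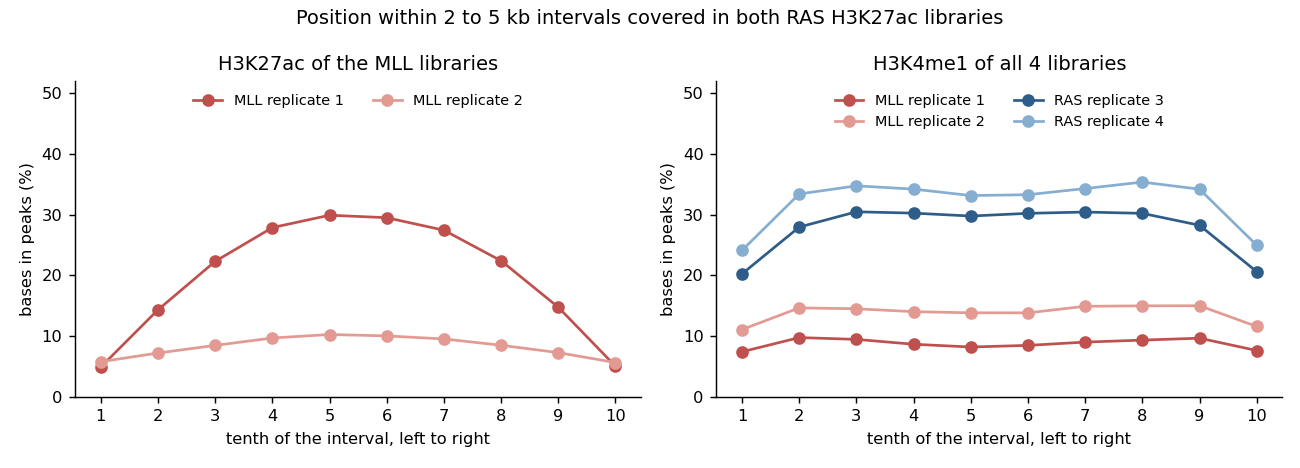
Lines give the percent of bases in peaks for each of 10 equal parts of the 11517 intervals of 2 to 5 kb covered in both RAS H3K27ac libraries, on the left for the MLL H3K27ac libraries and on the right for the H3K4me1 libraries. MLL replicate 1 peaks at 29.9% in the middle, MLL replicate 2 stays at or under 10.3%, and the MLL H3K4me1 lines lie under the RAS lines throughout.

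The RAS-shared regions were next divided by the H3K4 methylation of the RAS libraries with the same replicate numbers, which the choice of regions did not use. Promoter-type regions, with H3K4me3 in both RAS libraries, numbered 9947. Enhancer-type regions, with H3K4me1 in both RAS libraries and H3K4me3 in neither, numbered 7935, and 1696 had neither mark in RAS. The remaining 3218 were mixed between the RAS libraries.

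Promoter-type regions held an MLL peak more often. MLL replicate 1 held a peak in 84.9% of them and in 55.5% of the enhancer-type regions. MLL replicate 2 held one in 56.6% and 28.7%. Neither MLL library held a peak in 12.3% of the promoter-type regions, 37.0% of the enhancer-type regions and 64.2% of those with neither mark. In the mixed regions this was 52.3%. The enhancer-type regions were not smaller than the promoter-type ones, with a median of 3631 bp of RAS peaks against 2771 bp. Regions with neither mark were smaller (1661.5 bp). At 2 to 5 kb, 54.6% of them lacked an MLL peak against 43.7% of enhancer-type regions. In that size class without H3K79me2 the shares were 55.8% and 54.8%.

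The difference was also present at matched size. Among regions of 2 to 5 kb, MLL replicate 1 held a peak in 89.1% of 4623 promoter-type and 48.7% of 3652 enhancer-type regions, and MLL replicate 2 in 57.8% and 21.6%. In the same size class without H3K79me2 in any library, the shares were 76.2% of 706 and 44.7% of 2255 regions for MLL replicate 1, and 15.4% and 4.04% for MLL replicate 2. The promoter-type regions of this class had the higher median best score in RAS, 533 against 348 in replicate 3 and 431 against 385 in replicate 4.

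Within score classes of RAS replicate 3 the order was the same for MLL replicate 1. It held a peak in 44.8% of promoter-type against 29.2% of enhancer-type regions in the lowest class, and in 98.4% against 89.3% in the highest. For MLL replicate 2 the highest class gave 83.2% against 46.9%, but in the lowest class the order turned, with 16.3% against 22.6%. In regions under 1 kb it was also the other way for MLL replicate 2, with 8.47% of 118 promoter-type and 33.7% of 163 enhancer-type regions.

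**Figure D4:**
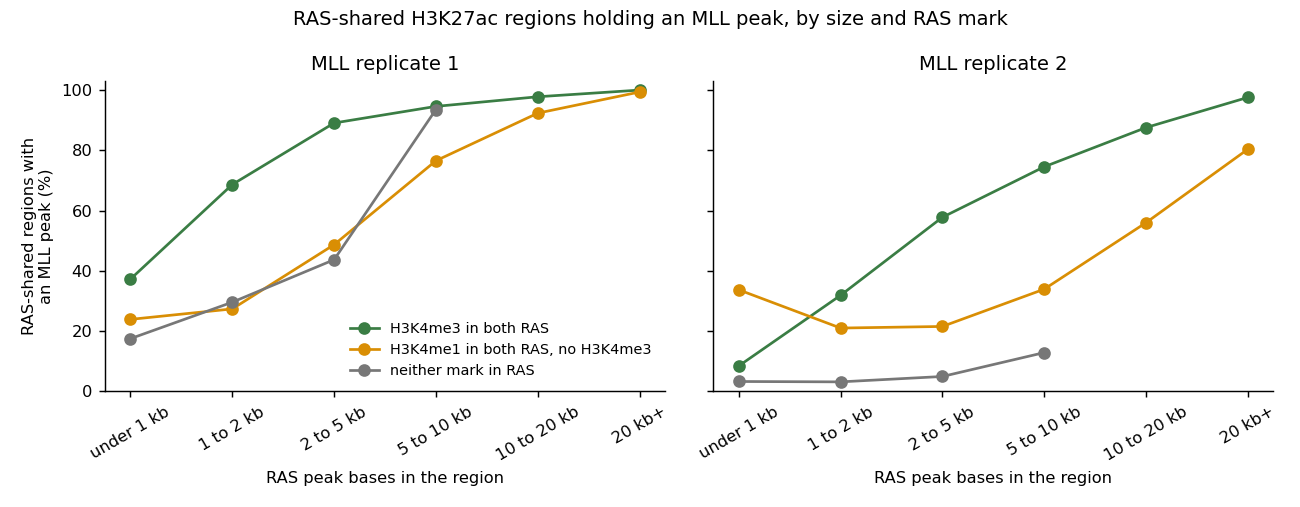
Points give the percent of RAS-shared H3K27ac regions that hold a peak of MLL replicate 1 (left) or MLL replicate 2 (right), by the RAS peak bases in the region and by the H3K4 methylation in RAS; classes with fewer than 20 regions are not drawn. At 2 to 5 kb the promoter-type regions (green) stand at 89.1% and 57.8% and the enhancer-type regions (orange) at 48.7% and 21.6%.

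The other marks were then read at the RAS-only regions in all 4 libraries of each mark. H3K4me1, the product of MLL4, touched 16.5% and 33.7% of these 6927 regions in the MLL libraries and 61.3% and 62.8% in the RAS libraries, with no overlap between the groups. The groups were also apart over all 48470 regions, at 28.0% and 38.1% in MLL and 47.1% and 45.6% in RAS, and over all RAS-shared regions, at 46.6% and 61.4% against 74.4% and 70.2%. In the 7400 regions with H3K27ac in all 4, the H3K4me1 shares were 77.7% and 88.1% in MLL and 90.8% and 82.0% in RAS, so there the groups overlapped.

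H3K4me1 was itself present in both RAS libraries and absent from both MLL libraries in 22.4% of the RAS-only regions. This pattern was found in 8.19% of all 48470 regions and in 3.22% of the regions with H3K27ac in all 4. The opposite pattern, H3K4me1 in both MLL libraries and neither RAS library, was found in 0.635% of the RAS-only regions and 1.24% of all regions. With regions chosen by MLL replicate 1 alone, H3K4me1 in both RAS and neither MLL library was found in 20.9% of the 7915 RAS-shared regions that lacked its H3K27ac peak and in 6.88% of the 14881 that had it.

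At matched size the H3K4me1 values were as far apart. Among RAS-shared regions of 2 to 5 kb with H3K4me1 in both RAS libraries, neither MLL library had H3K4me1 in 844 of 1815 RAS-only regions (46.5%). The figure was 81 of 2260 (3.58%) where H3K27ac was present in all 4 and 428 of 2394 (17.9%) where 1 of the MLL libraries had it. From 1 to 20 kb, the share was 42.1% to 47.3% in RAS-only regions and 3.58% to 5.64% in those with H3K27ac in all 4. The H3K4me1 lists of the MLL tumours were also shorter as a whole, with 49595 and 81432 peaks against 96068 and 93258, and the part of this in the counts was not tested.

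H3K79me2, whose lists had similar spans in both tags, had similar shares in the 4 tumours. It touched 14.6% and 15.2% of the RAS-only regions in MLL and 15.7% and 13.9% in RAS. In the regions with H3K27ac in all 4 its shares were 82.6%, 82.4%, 84.7% and 83.3%. RAS-shared regions with H3K79me2 in all 4 tumours lacked an MLL H3K27ac peak in 6.60% of 7883 cases, and those without any H3K79me2 in 50.7% of 10577. For MLL replicate 1 alone, a peak was present in 84.6% and 48.6% of these regions, and for MLL replicate 2 in 77.3% and 7.51%. Promoter-type regions made up 5784 of the 7883 and 1839 of the 10577. Among them MLL replicate 1 held a peak in 92.4% and 64.7%, and MLL replicate 2 in 80.3% and 10.8%. Among enhancer-type regions the shares were 63.3% and 51.3% for MLL replicate 1 and 70.4% and 8.85% for MLL replicate 2.

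H3K4me3 was present in 18.1% of the RAS-only regions in MLL replicate 2, against 20.0% and 18.2% in RAS, so these values differed little. MLL replicate 1 had H3K4me3 in 4.23%, but its H3K4me3 list was short, with 10637 peaks in 3.18 Mb, and at the regions with H3K27ac in all 4 it also stood apart, at 39.6% against 72.7% to 74.6%. The repressive mark H3K27me3 touched 1.31% and 1.99% of the RAS-only regions in MLL and 4.74% and 1.05% in RAS, so the groups overlapped. H3K9me3 touched at most 0.303% of them in 3 libraries and 3.91% in RAS replicate 4.

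**Figure D5:**
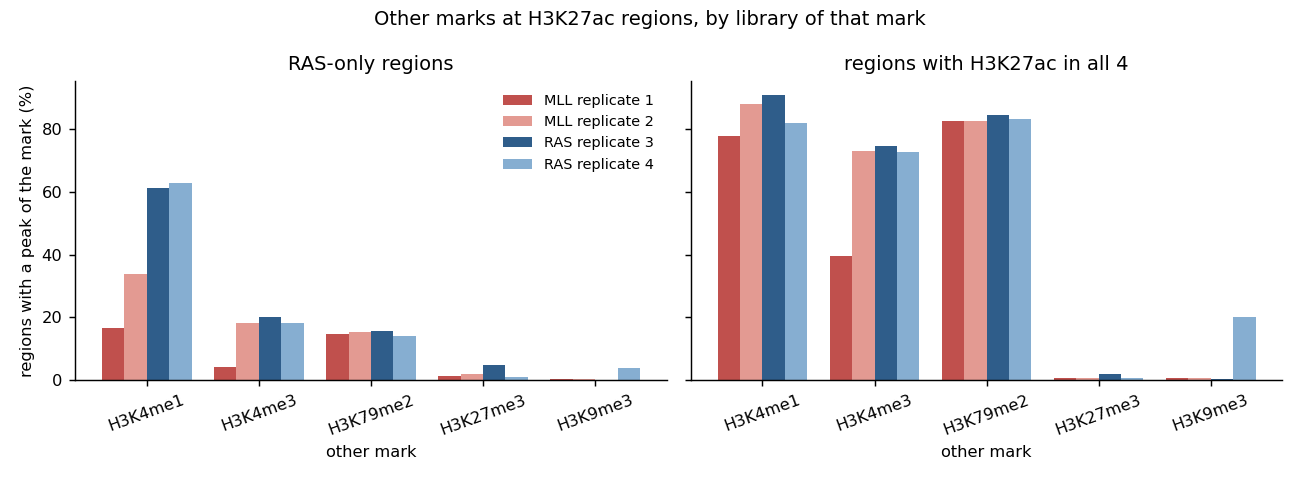
Bars give the percent of H3K27ac regions that hold a peak of each other mark in each of its 4 libraries, for the 6927 RAS-only regions on the left and the 7400 regions with H3K27ac in all 4 on the right. At the RAS-only regions the H3K4me1 bars of MLL (16.5% and 33.7%) are under those of RAS (61.3% and 62.8%), while the H3K79me2 bars lie between 13.9% and 15.7%.

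The 5 longest regions of each pattern were named by position. The longest RAS-only region lay on chromosome 16 from 21231221 to 21258398. RAS replicate 3 had 4 peaks over 25400 bp there and RAS replicate 4 had 6 peaks over 12648 bp. H3K4me1 covered 6335 and 8767 bp in the RAS libraries, 0 bp in MLL replicate 1 and 485 bp in MLL replicate 2. H3K4me3 was present in all 4 tumours, with 237 and 1309 bp in MLL and 1780 and 894 bp in RAS. Both MLL H3K4me3 libraries thus had peaks in a region without MLL H3K27ac peaks.

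The next longest lay on chromosome 7 from 151782246 to 151808232, with 23822 and 25184 bp of H3K27ac in RAS. H3K4me1 covered 6866 and 11306 bp in RAS, 0 bp in MLL replicate 1 and 304 bp in MLL replicate 2. No H3K4me3, H3K79me2 or H3K27me3 peak touched it in any library. The other 3 were on chromosome 12 from 5269892 to 5290696, chromosome 9 from 97562108 to 97582805 and chromosome 15 from 79916728 to 79937369, where RAS replicate 4 covered 19119 to 20628 bp and RAS replicate 3 only 5413 to 7927 bp. In all 5 regions MLL replicate 1 had no H3K4me1 peak, and MLL replicate 2 had 109 to 617 bp.

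Without MLL replicate 2 the 5 longest were 4 of these and a region on chromosome 17 from 28400677 to 28424474, which had 19287 and 13368 bp of H3K27ac in RAS and none in MLL replicate 1. MLL replicate 2 covered 1667 bp there, and H3K79me2 covered 18990 to 23648 bp in the 4 tumours. H3K4me1 covered 2042 and 2983 bp in MLL and 12897 and 13191 bp in RAS.

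The longest region with H3K27ac in all 4 was on chromosome 8 from 129240596 to 129413072. The RAS libraries covered 160918 and 169518 bp of it in 12 peaks each. MLL replicate 1 covered 79604 bp in 176 peaks and MLL replicate 2 covered 17329 bp in 45. It had no H3K4me3 peak in any library, and H3K4me1 covered 6363 and 8357 bp in MLL against 41941 and 68898 bp in RAS.

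The other 4 lay on chromosome 8 from 11286827 to 11401628 and from 119777489 to 119873693, on chromosome 14 from 26264864 to 26364961 and on chromosome 15 from 10585374 to 10682735. H3K4me1 was lower in both MLL libraries than in both RAS libraries in all 5. On chromosome 14 the RAS libraries differed, with 96016 bp in replicate 3 and 34916 bp in replicate 4, and MLL replicates 1 (40340 bp) and 2 (63829 bp) both lay between them.

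The 5 longest regions with a peak in both MLL libraries and in neither RAS library were on chromosome 18 from 6463709 to 6483477, chromosome 17 from 88416858 to 88432313 and from 27745143 to 27756670, chromosome 3 from 90127157 to 90141458 and chromosome 4 from 34811921 to 34825053. MLL replicate 1 had a single peak of 136 to 173 bp in each, while MLL replicate 2 covered 4923 to 11697 bp. H3K79me2 covered these regions nearly whole in every tumour. That on chromosome 18 had 19519 to 19769 bp of H3K79me2. Over all 288 regions of this pattern, H3K79me2 was present in 75.7% to 91.3% per library and H3K4me3 in at most 1.39%. Over all 48470 regions the shares were 44.1% to 47.5% for H3K79me2 and 9.66% to 24.8% for H3K4me3.

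Without MLL replicate 2, the 3 longest regions with an MLL replicate 1 peak and no RAS peak lay side by side on chromosome 12, within 81308717 to 81333811. MLL replicate 1 covered 2812, 2660 and 6877 bp of them, and MLL replicate 2 also had peaks in all 3. The RAS H3K27ac lists were empty around them, over 93.9 kb in replicate 3 and 41.7 kb in replicate 4. In these stretches the RAS H3K4me1 lists covered 30887 and 34345 bp and the RAS H3K79me2 lists 46852 and 40221 bp. Active marks of the RAS libraries with the same replicate numbers were thus called where the RAS lists held no H3K27ac peak. Whether H3K27ac was absent there in RAS or was present and left out of the lists cannot be told apart from the files, so these 3 regions do not show H3K27ac present in MLL tumours alone. The same holds for the 5 longest regions with peaks in both MLL libraries only, where the RAS H3K27ac lists were empty over 28.9 to 206 kb. In those stretches the RAS H3K4me1 lists covered 3210 to 13015 bp and the RAS H3K79me2 lists 28590 to 55463 bp.

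The other 2 of the 5 longest without MLL replicate 2 were unlike these. One lay on chromosome 13 from 103445628 to 103448388, with 828 bp in 4 peaks of MLL replicate 1, and one on chromosome 15 from 72751915 to 72754515, with 1104 bp in 6 peaks. MLL replicate 2 had no H3K27ac peak in either. In the stretch empty of RAS H3K27ac around the first, neither RAS library had an H3K4me1 or H3K79me2 peak. Within the first region H3K4me1 covered 300 and 458 bp in MLL replicates 1 and 2, and H3K27me3 covered 684 bp in RAS replicate 3. Around the second, RAS replicate 3 had 1243 bp of H3K4me1 and no H3K79me2, and RAS replicate 4 had 7966 and 7143 bp.

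Across the autosomes, the share of RAS-shared regions without a peak in either MLL library ran from 25.1% on chromosome 7 to 39.1% on chromosome 18, with a median of 28.7%. On the X chromosome it was 48.0% of 373 regions, and MLL replicate 2 held a peak in 13.9% of these against 30.1% to 46.1% on autosomes. The RAS peaks of the X chromosome regions were also shorter, with a median of 1717 bp against 2807 bp over all RAS-shared regions. On the Y chromosome 3 regions were RAS-shared, and 0 of them held a peak of either MLL library. The sex of the animals was not given.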

How the data were processed

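Histone marks in mouse lung tumours were measured by chromatin immunoprecipitation and sequencing, and 24 of 28 samples had a peak list. The submitters' processing notes name CASAVA 1.7, Bowtie, MACS, deepTools and the build mm9, without roles. Per the files, peak names carry the name MACS. The score of each peak is the authors' deposited value. Settings, filters and depth are not given in the sources used here, and the labels do not say that replicates came from separate animals. With 2 libraries per tag, the number of libraries limits the precision.

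Groups follow the mark named in each title, with a split by the MLL or RAS tag of the file name. Peaks were joined across gaps of up to 1000 bp with Python 3.11.15, numpy 2.4.6 and pandas 2.3.3, and a region counted as present in a library at 1 shared bp or more. Interval steps were tested on simulated data. Log2 differences are of mean log2 values, with exact two-sided permutation tests. Named regions were the 5 longest of each pattern. The members, lists and tests were chosen with earlier results of these data known. The alternatives were a score of at least 100, equal numbers of best-scored peaks, autosomes, mean width, other gap sizes, a 50% overlap, regions without H3K79me2 and leaving out each library. Extension of peaks by 500 bp and regions built from 1 tag were added after seeing the data. Planned gene lists and cell type markers were not computed, since genes could not be placed on mm9, and no sequence was read. The other 4 samples, the inputs, were not analysed here.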

Additional observations from a re-analysis of the deposited data

Results flagged for a closer look

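In 24 sets of 4 values, 1 per H3K27ac library or per library of another mark at H3K27ac regions, the most distant value was set against the other 3. In 7 sets the gap was past Dixon's 95% limit. About 1 set in 20 would be by chance, and the sets share libraries.

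The H3K27ac peaks of MLL replicate 2 touched H3K79me2 in 82.7% of cases, against 36.4% to 43.0% in the other libraries. This value was known when the libraries were chosen, so it is a description and its place among the 7 sets supports nothing. RAS replicate 3 peaks touched H3K27me3 in 3.40%, against 0.0712% to 0.597%. RAS replicate 4 peaks touched H3K9me3 in 6.43%, against 0.0260% to 0.697%. H3K4me3 of MLL replicate 1 was low at RAS-only regions (4.23%, others 18.1% to 20.0%) and at regions with H3K27ac in all 4 (39.6%, others 72.7% to 74.6%). H3K9me3 of RAS replicate 4 was high at RAS-only regions (3.91%, others 0.101% to 0.303%) and at regions with H3K27ac in all 4 (20.0%, others 0.446% to 0.662%).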

How the results depend on the processing

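Of 39 alternatives for the 5 list measures, 37 kept the direction. The exceptions were the peak number at a score of at least 100 (log2 difference -0.57) and the region number without joining (0.75), which is then the peak number. Leaving out 1 library kept every direction for these 5 measures. The share of RAS-shared regions without an MLL peak (30.4%) was 51.9% at a score of at least 100, 40.7% with the 40049 best-scored peaks of each list, 33.9% without joining, 28.0% with gaps of up to 3 kb joined, 85.2% when 50% of a region had to be covered and 50.7% in regions without H3K79me2. It was 29.0% with peaks extended by 500 bp and 31.3% with regions from 1 tag alone, both chosen after seeing the data, and 34.9% to 63.3% with 1 library left out. The share of MLL-shared regions without a RAS peak (3.62%) was, in the same order, 0.335%, 1.24%, 5.07%, 1.85%, 13.1%, 1.20%, 2.34% and 4.69%, and 5.09% to 54.6% with 1 library left out. At 50% coverage it rests on 199 regions. The cause was not tested, beyond the stricter rule of 50% coverage itself. The share of RAS bases also covered in MLL (14.8% ± 7.26, SD, n = 2) was 9.13% at a score of at least 100, 12.0% with the best-scored peaks, 14.8% on autosomes and 9.63% to 19.9% with 1 library left out. No paired analysis was possible because the MLL and RAS libraries share no replicate number. Depth is unknown, so a region without a called peak may hold signal under the caller's threshold.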
